A study of Mus musculus with 4 samples.

Results

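The genes described here are the nuclear-encoded genes of the mitochondrial respiratory chain, followed complex by complex across the blood cells of mouse bone marrow and tumor. They were taken by symbol, as all genes whose names begin with Nduf, Uqcr, Atp5 or Cox4 to Cox8, together with Sdha, Sdhb, Sdhc and Sdhd, and a gene had to reach 50 unique molecular identifiers (UMIs, each counting 1 captured RNA molecule) over the 2 libraries of a tissue. In bone marrow 88 of 92 matching symbols reached that level, among 31017 symbols in all. In tumor 91 of 94 did, among 32245. The bone marrow set held 45 genes of complex I, 4 of complex II, 8 of complex III, 15 of complex IV and 16 of ATP synthase. The tumor set held 47, 4, 8, 15 and 17. Cox7b2, Cox8b and Cox8c stayed below the level in both tissues, and Ndufa4l2 stayed below it in bone marrow with 2 UMIs. Both tissues together gave 92 distinct genes, and the rule used no difference between genotypes.

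The series holds 4 droplet single-cell RNA libraries of sorted CD45+ cells, 1 for each combination of tissue and genotype, each pooled from 3 mice. The knockout mice (KO) were S100a8 fl/fl Vav-Cre+/-, which removes S100a8 throughout the blood system because the Vav promoter drives Cre there, and the wild-type mice (WT) were S100a8 fl/fl Vav-Cre-/-, so both genotypes carried the floxed allele and neither received a treatment. Bone marrow came from tumor-free mice, and tumors were grown from LLC, a mouse Lewis lung carcinoma line. With 1 library per group no difference can be tested, and no p-value or standard error is given. Every interval printed below covers counting error at 95% and leaves out variation between mice and between libraries. KO and WT cannot be told apart from the library that carries them.

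The respiratory chain sits in the inner mitochondrial membrane. Complex I takes electrons from NADH and complex II from succinate, complex III passes them to cytochrome c, and complex IV hands them to oxygen. Complexes I, III and IV pump protons, and ATP synthase lets the protons back to make ATP. Most subunits are encoded in the nucleus and imported, while a small set of core subunits is encoded in mitochondrial DNA. Neutrophils are known for running mainly on glycolysis and for losing mitochondrial content as they mature, whereas dividing progenitors and erythroid precursors are rich in mitochondria.

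S100a8, which encodes a subunit of the calcium-binding protein calprotectin, stood at 0.135 CPM (UMIs scaled to the library total, or below to the total of a class) in the KO bone marrow library and 69952 CPM in WT, and at 0.764 CPM in KO tumor and 139 CPM in WT tumor. After filtering, the libraries held 7439 to 10471 cells, with median depths of 2750 UMIs (KO) and 2240 (WT) per bone marrow cell and of 7864 (KO) and 6385 (WT) per tumor cell. Each pair of libraries of a tissue shared 33 barcodes. Cells were clustered within each tissue and named from marker genes, and 10 bone marrow and 12 tumor classes had 100 or more cells in each library. Clusters whose markers did not settle a name keep their number. These were bone marrow cluster 17 (led by Pf4, Itga2b and Meis1) and tumor clusters 0 (Ace, Treml4, Adgre4), 1 (Arg1, Gpnmb, Mmp12), 2 (Chil3, Vcan, F5), 12 (C1qa, C1qb, Folr2) and 13 (Lyz1, Lpl, Cxcl9).

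The share of all UMIs that came from respiratory chain genes separated the bone marrow classes clearly and in nearly the same order in both libraries. It was highest in erythroid-like cells, at 3.46% in KO and 3.43% in WT, followed by granulocyte progenitor-like cells at 3.08% and 3.00% and monocyte-like cells at 3.07% and 2.98%. Mature neutrophil-like cells were lowest, at 1.11% in KO (interval 1.10 to 1.11) and 0.88% in WT (0.869 to 0.890). The highest class therefore stood 3.12-fold above the lowest in KO and 3.89-fold in WT. Along the neutrophil series the share went from 3.00% in WT progenitor-like cells to 1.40% in immature and 0.88% in mature neutrophil-like cells, and in KO from 3.08% to 1.79% and 1.11%.

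Lymphoid and dendritic classes of bone marrow lay between these ends. B precursor-like cells had 2.65% in KO and 2.48% in WT, plasmacytoid dendritic-like cells 2.41% and 2.33%, and B-like cells 1.57% and 1.66%. The KO share was above the WT share in 9 of 10 bone marrow classes, with B-like cells the exception. In tumor, neutrophil-like cells were again lowest, at 0.560% in KO and 0.874% in WT. All other tumor classes lay between 1.60% and 2.42% in either library, with cluster 1 lowest among them. The order at the top differed between the tumor libraries: cluster 0 led in KO with 2.42%, and CD8 T-like cells led in WT with 2.30%.

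**Figure D1:**
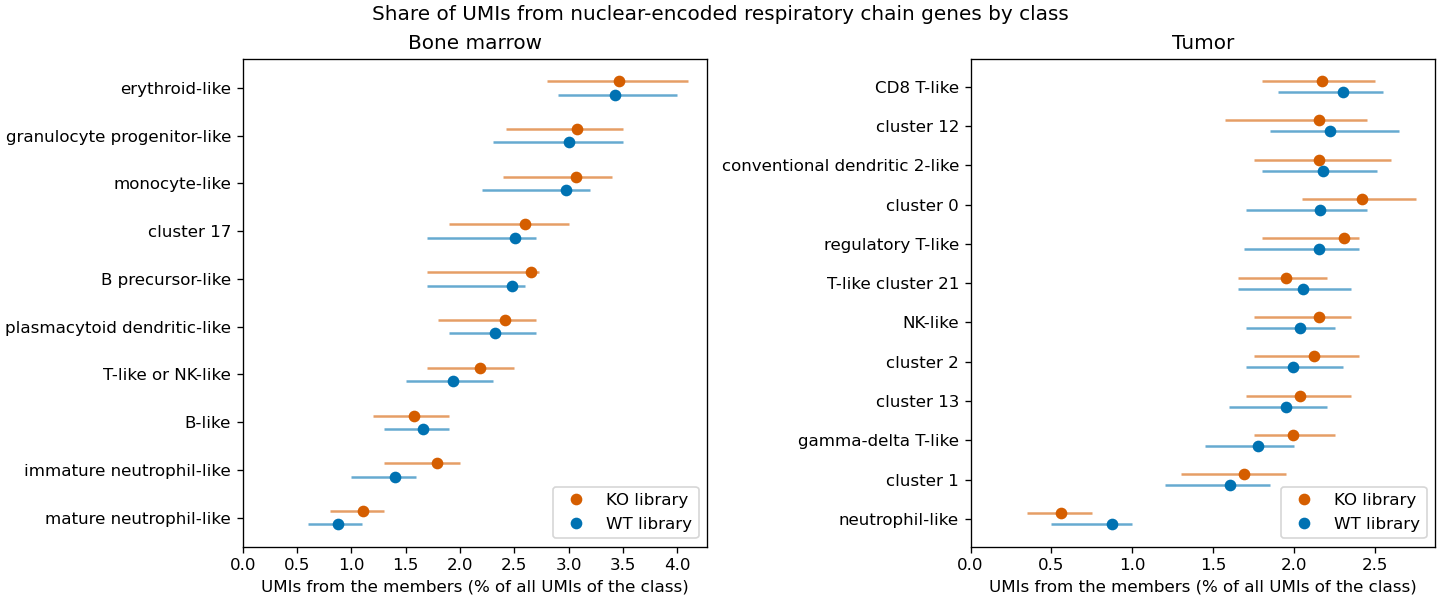
Percent of UMIs from nuclear-encoded respiratory chain genes (x axis) in each class (y axis) of bone marrow and tumor, with 1 point for the KO and 1 for the WT library. In both tissues the neutrophil-like classes lie lowest, and in bone marrow the erythroid-like class lies highest at 3.46% in KO and 3.43% in WT.

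For the comparison of genotypes, UMIs of a class were summed per library and scaled to CPM, and each log2 ratio of KO over WT was taken relative to the median ratio of all measured genes of that class (those with 50 or more UMIs over both libraries). That median was itself 0.23 in immature and 0.22 in mature neutrophil-like cells of bone marrow and -0.34 in tumor neutrophil-like cells, so raw CPM values and relative ratios can differ in these classes. A gene was called higher or lower where its log2 ratio lay more than 0.32 above or below the class median. Members of a class share its 2 libraries and are not replicates of a genotype.

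In bone marrow the members lay close to the other genes. Their median log2 ratio was between -0.02 (B-like cells) and 0.16 (T-like or NK-like cells), and it was above 0 in 9 of 10 classes. With cells thinned to equal depth it turned below 0 in erythroid-like (-0.018) and plasmacytoid dendritic-like cells (-0.044) and above 0 in B-like cells (0.021). In erythroid-like cells, where these genes are most abundant, 0 of 84 measured members were higher past that limit, against 9.89% of all measured genes, and 0 were lower, against 11.3%. The share of all genes past the limit was smaller among abundant genes. With 500 or more UMIs there, 0 of 76 members were higher, against 3.23% of all such genes, and 0 were lower, against 2.65%. Granulocyte progenitor-like cells had a median of 0.01 with 1 of 83 members higher (10.1% of all genes) and 1 lower (11.2%). That median fell on either side of 0 among the alternatives, down to -0.0050. Among genes with 500 or more UMIs in this class, 0 of 69 members were higher (3.51% of all such genes) and 0 were lower (2.17%).

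Bone marrow neutrophil-like cells showed the widest gap in summed level. All members together stood at 1.27 times the WT level in immature cells (interval 1.27 to 1.28) and at 1.26 times in mature cells (1.24 to 1.28), on the CPM scale. S100a8 and S100a9 took 32.9% of the UMIs of WT immature cells and 19.5% of KO immature cells, and 26.7% and 15.03% in mature cells. With those genes, mitochondrial, ribosomal protein and hemoglobin genes left out of the totals, the ratio of summed levels was 1.07 in immature and 1.09 in mature cells. Relative to all genes, the median member was 0.14 in immature and 0.16 in mature cells. The mature value was 0.051 with cells thinned to equal depth. In the immature class 4 of 82 members were higher (9.22% of all genes) and 2 lower (12.8%), and in the mature class 23 of 78 were higher (18.4%) and 4 lower (20.1%).

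The values of single members in mature neutrophil-like cells ran in both directions. Ndufa11, an accessory subunit of the membrane arm of complex I, stood at 73.6 CPM in KO (662 UMIs) and 25.5 in WT (76 UMIs), a relative ratio of 2.48 (interval 1.96 to 3.19). Its exons overlap those of Vmac, so the 2 genes may share reads. Ndufb10, another accessory subunit, stood at 91.0 and 49.7 CPM. Sdha, the flavin-carrying catalytic subunit of complex II, was lower in KO at 47.6 CPM against 58.1, a log2 ratio of -0.50, and so was Atp5g2, 1 of 3 genes for the same ring subunit of ATP synthase, at 37.8 against 43.0 (-0.40). Atp5a1, the alpha subunit of the catalytic head of ATP synthase, had 114 CPM in KO and 71.9 in WT (0.45), and Cox5a, a matrix-side subunit of complex IV, had 154 and 101 (0.39).

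The mature class is made of 5 clusters, and the median member ratio differed among them. It was 0.24 in cluster 3, 0.17 in cluster 4, 0.10 in cluster 6, 0.04 in cluster 5 and -0.14 in cluster 1, which held 83 WT cells. By the complexes, the mature class had medians of 0.16 for complex I, 0.18 for complex IV and 0.20 for ATP synthase, while complex III stood at -0.03 and complex II at -0.21. Marker levels in the same cells moved too: the 9 mature neutrophil markers summed to 34519 CPM in KO and 42439 in WT, the 7 immature neutrophil markers to 17672 and 14885, and the 10 erythroid markers to 311 and 763. Their part in the result was not tested. Immature cells were more even, with medians of 0.11 to 0.17 over the 5 complexes. There the genes at the ends were Cox7a2l, a supercomplex assembly factor, at 107 CPM in KO and 71.0 in WT (0.36), Atp5j, a stalk subunit of ATP synthase, at 502 and 336 (0.35), and the assembly factor Ndufaf7 at 9.41 and 10.8 (-0.43).

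**Figure D2:**
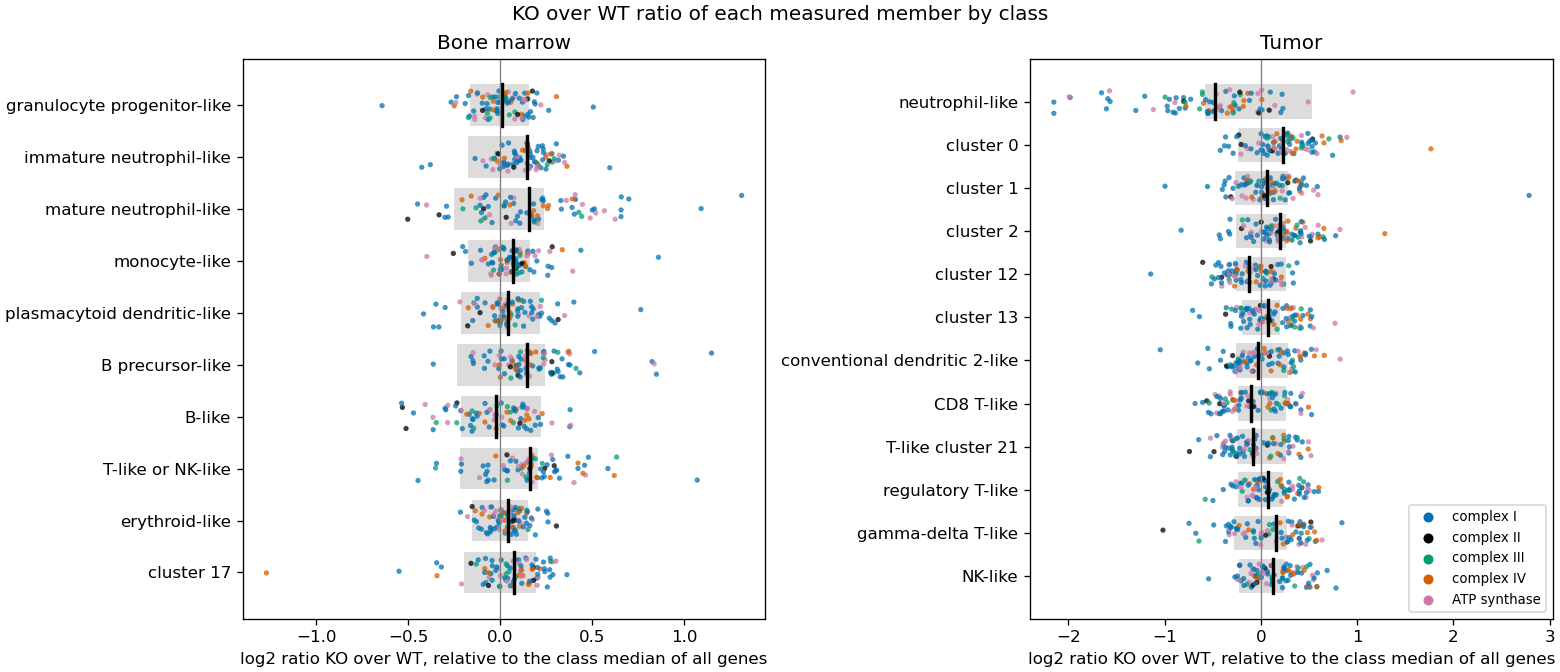
Log2 ratio KO over WT of each measured member, relative to the class median of all genes (x axis), for every class (y axis), with points for members colored by complex, a black bar for their median and a grey box from the lower to the upper quartile of all measured genes. The bone marrow medians lie between -0.02 and 0.16, and the tumor neutrophil-like class lies apart at -0.47.

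The B precursor-like class and the T-like or NK-like class were the other bone marrow classes with a median above 0.1. In B precursor-like cells the median was 0.14, with 15 of 83 members higher (19.1% of all genes) and 1 lower (18%). Atp5g1, another of the 3 ring subunit genes, stood at 238 CPM in KO and 137 in WT, a relative ratio of 1.79 (interval 1.58 to 2.02), and the complex I assembly factor Ndufaf4 at 64.6 and 37.5. The class value moved with its makeup. Within its clusters the median was -0.01 (cluster 10), -0.09 (cluster 18) and 0.06 (cluster 19), and it was -0.02 with each cluster given the same weight in both libraries. Cluster 18, with few cycling cells, held 197 of 448 KO and 710 of 1199 WT cells. In T-like or NK-like cells the median was 0.16, with 12 of 78 members higher (15.8%) and 3 lower (16.5%), and it was 0.094 as a mean over cells. Uqcrfs1, the Rieske iron-sulfur subunit of complex III, stood at 122 and 79.0 CPM, and Cox5b, a zinc-binding subunit of complex IV, at 388 and 252. In the same class 11.3% of KO and 5.81% of WT cells carried proliferation markers, and erythroid markers summed to 247 CPM in KO and 3992 in WT. The part of either in the result was not tested.

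For the other marrow classes, counts past the limit and single genes at the ends are given. Members past the limit numbered 4 higher (10.7% of all genes) and 1 lower (12.1%) of 85 in monocyte-like cells, and 3 higher (16.7%) and 4 lower (16.9%) of 82 in plasmacytoid dendritic-like cells. They numbered 3 higher (17%) and 8 lower (16.6%) of 77 in B-like cells, and 1 higher (13.9%) and 4 lower (14.8%) of 83 in cluster 17. Ndufaf4 stood at 52.0 CPM in KO monocyte-like cells and 28.5 in WT (0.86), while Sdhb, the iron-sulfur subunit of complex II, stood at 106 and 126 (-0.26). Ndufs3, a core subunit of complex I, had 60.9 CPM in KO granulocyte progenitor-like cells and 41.7 in WT (0.51). In B-like cells the complex II genes had a median of -0.37, and Ndufa11 stood at 111 CPM in KO against 169 in WT (-0.54), opposite in sign to mature neutrophil-like cells. In plasmacytoid dendritic-like cells Atp5c1, the gamma subunit that turns inside ATP synthase, was at 250 and 192 CPM (0.35), and Ndufa13, an accessory subunit of complex I, at 237 and 296 (-0.35).

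Tumor neutrophil-like cells had the members' lowest median ratio, -0.47 relative to all genes. The sum of all members in KO was 0.641 of WT (interval 0.623 to 0.660). This ratio is uncentred, on the CPM scale, and the median ratio of all genes was itself below 0 in this class. Relative to all genes, 49 of 80 measured members were lower past the limit (34.4% of all genes) while 2 were higher (34.7%). By complex the medians were -0.57 for complex I, -0.61 for complex III, -0.32 for ATP synthase, -0.31 for complex IV and -0.12 for complex II. Atp5g1 stood at 16.6 CPM in KO (219 UMIs) and 83.9 in WT (49 UMIs), a relative ratio of 0.252 (interval 0.184 to 0.350). Ndufa4 stood at 19.5 and 75.3 CPM (-1.60), and Atp5g3 at 17.7 and 66.8 (-1.57). Ndufa4 is grouped with complex I by its symbol, though its protein is now known as a subunit of complex IV. The members higher in KO were Atp5d, the delta subunit of the central stalk, at 254 against 166 CPM (0.96), and Atp5md, a small membrane subunit, at 279 against 252 (0.49).

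The tumor neutrophil-like comparison rests on few WT cells, 219 against 3075 in KO, and on unlike clusters. Cluster 8, led by Hcar2, Hspa1b and Il1f9 with the heat-shock gene Hspa1a, held 1834 KO and 76 WT cells and had a median of -0.64. Cluster 10, led by G0s2, Retnlg and Cxcr2, held 1241 and 143 cells and had a median of -0.33. Most KO cells therefore lay in cluster 8 and most WT cells in cluster 10. In cluster 10 alone the uncentred summed ratio was 0.757, beside a median log2 ratio of all genes of -0.19. Markers of other cell types were higher in the WT cells: 8 of 8 T cell markers were detected in both libraries and summed to 21.4 CPM in KO and 306 in WT, 8 of 8 monocyte markers to 183 and 674, and 9 of 10 macrophage markers to 280 and 527, while B cell markers were at 0 in WT. Ribosomal protein genes took 3.31% of KO and 6.19% of WT UMIs, and doublets, when kept, moved the median to -0.21. With genes of 10 or more UMIs included it was -0.17. The part of these in the result was not tested.

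In the other 11 tumor classes the complexes parted from each other. Complex IV genes had a median ratio above 0 in 10 of these 11 classes, from -0.11 in cluster 12 to 0.39 in gamma-delta T-like cells, and complex III genes in 11 of 11, from 0.01 to 0.31. The median for complex IV was above those for complex I, complex II and ATP synthase in all 11. The sets are not alike: complex I holds every Nduf symbol, with its assembly factors and Ndufa4, while most complex IV assembly genes lie outside the symbol rule. They also differ in transcript length, which the tumor ratios followed, as described below. The complex II genes run from 815 (Sdhc) to 1811 bases (Sdha), while most complex III and complex IV genes are shorter. The part of length in the differences between complexes was not tested. Of the 14 carrier and assembly genes outside the rule, those measured had a median above 0 in 3 and below 0 in 8 of these classes. Complex II genes had a median above 0 in 5 and below 0 in 6 of the 11 classes. Their summed KO level, uncentred and on the CPM scale, was below WT in 9 of 11, with 0.741 in T-like cluster 21, 0.754 in CD8 T-like cells and 0.802 in conventional dendritic 2-like cells. Over all complexes together, the median was above 0 in 7 and below 0 in 4 of the 11 classes. Among these, conventional dendritic 2-like cells, had -0.029, which turned to 0.064 with thinned cells. In bone marrow the complex IV median was above 0 in 10 of 10 classes and lay above that of complex I in 7, of ATP synthase in 6 and of complex II in 5.

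**Figure D3:**
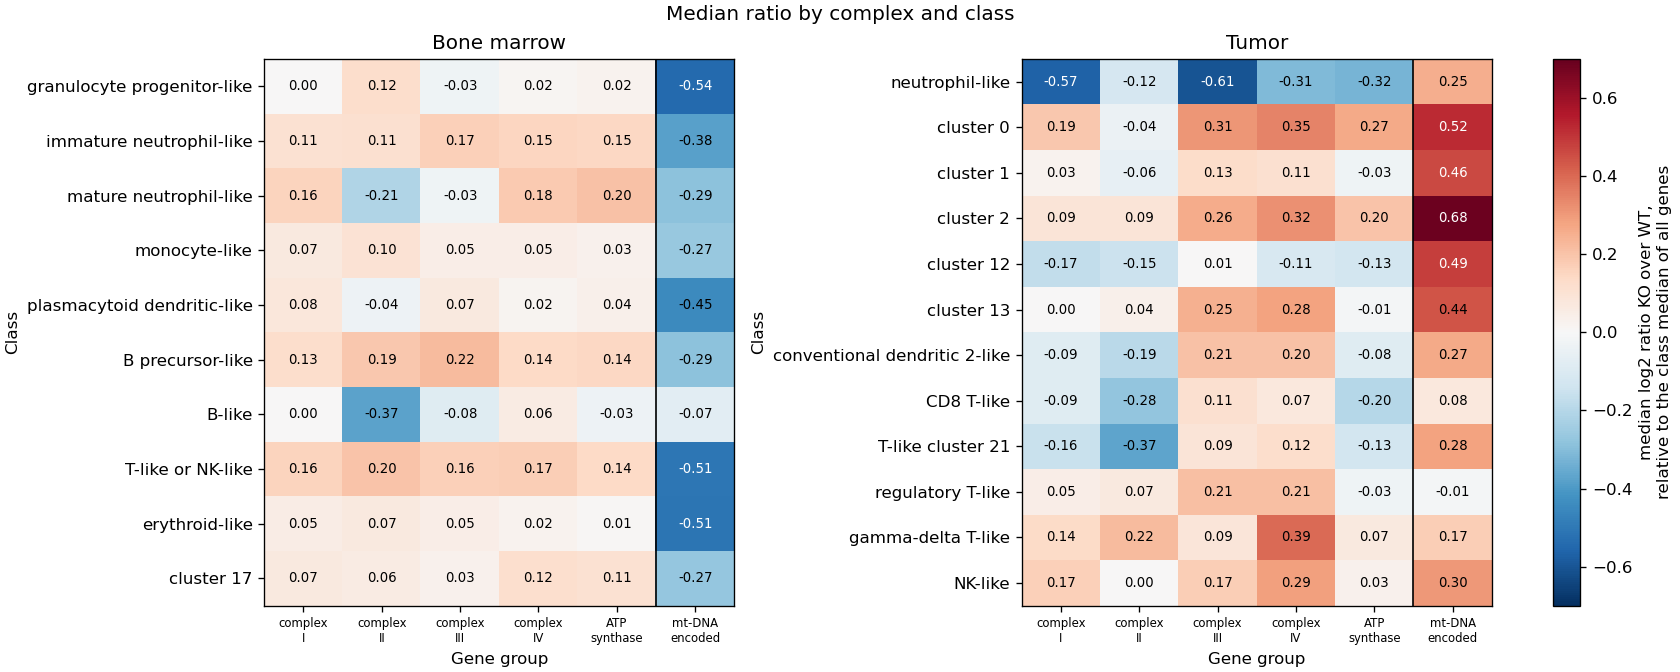
Median log2 ratio KO over WT relative to all genes for each complex and for the mitochondrially encoded genes (columns) in each class (rows), colored from blue (lower in KO) to red (higher in KO). In tumor the complex IV column is red in 10 of 12 classes, while the mitochondrially encoded column is blue in all 10 bone marrow classes.

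Among myeloid tumor classes, clusters 0 and 2 had the highest medians. The median was 0.23 in cluster 0, with 30 of 85 members higher (18.8% of all genes) and 4 lower (19.2%), and 0.20 in cluster 2, with 28 of 84 higher (20.9%) and 5 lower (20.4%). Atp5mpl, a small membrane subunit of ATP synthase, stood at 287 CPM in KO and 171 in WT in cluster 0, and at 283 and 183 in cluster 2. Cox7a2l stood at 469 and 291 CPM in cluster 0, and Ndufs4, an accessory complex I subunit, at 129 and 192 there. Cluster 12 lay on the other side with a median of -0.13, with 3 of 84 members higher (20.9%) and 21 lower (19.5%). There Sdhb stood at 126 CPM in KO and 187 in WT (-0.60), Ndufb10 at 161 and 223 (-0.51), and Ndufv3, an accessory subunit of the electron-input arm of complex I, at 195 and 146 (0.38). Cluster 1 had 17 of 87 members higher (22.6%) and 7 lower (21.2%), and conventional dendritic 2-like cells had 18 of 87 higher (22.2%) and 8 lower (20.8%). In cluster 13, with 20 of 87 higher (14.4%) and 4 lower (14.3%), Sdhb was at 116 and 159 CPM and Ndufs7, a core iron-sulfur subunit, at 94.9 and 129.

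Among lymphoid tumor classes the median was below 0 in CD8 T-like cells and T-like cluster 21. It was above 0 in regulatory T-like, gamma-delta T-like and NK-like cells. CD8 T-like cells had a median of -0.10, with 8 of 84 members higher (19.9%) and 22 lower (18.1%). Ndufa9, an accessory complex I subunit, stood at 58.5 CPM in KO and 97.1 in WT (-0.68), and Ndufs3 at 68.6 and 108 (-0.61), while Cox7c, a small membrane subunit of complex IV, stood at 672 and 493 (0.49). T-like cluster 21 had a median of -0.09, with 10 of 84 higher (20.3%) and 14 lower (19.6%). There the membrane anchor Sdhd was at 33.6 and 59.5 CPM (-0.74). NK-like cells had a median of 0.12, with 24 of 86 members higher (19.1%) and 1 lower (17.6%). There Ndufc1, an accessory complex I subunit, stood at 129 and 85.3 CPM (0.69) and Ndufa4 at 263 and 407 (-0.54). Regulatory T-like cells had a median of 0.07, with 20 of 83 members higher (18.1%) and 3 lower (18.7%). Gamma-delta T-like cells had a median of 0.16, with 29 of 79 members higher (21.1%) and 11 lower (21.9%), from 123 KO and 320 WT cells, and the median was 0.056 with doublets kept.

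Among iron-sulfur subunits of complex I in tumor, Ndufs8 was below the class median in all 12 classes, for example at 106 CPM in KO and 165 in WT in conventional dendritic 2-like cells. Of the members measured in all 12, 3 of 77 lay below the class median in each, against 3.06% of 3600 genes. Ndufs7 was below it in 11 of 12. Ndufs1, the largest of these subunits, was above it in 8 and below it in 3 of the 11 classes in which it was measured, neutrophil-like cells being among the 3.

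The tumor ratios followed transcript length among the members. Across members, Spearman's rho between the log2 ratio and the median length of a gene's protein-coding transcripts was -0.37 to -0.62 in the 11 classes other than neutrophil-like and -0.11 in neutrophil-like cells, over 78 to 86 members with a length in those 11 classes. Members share both libraries, so this is a description without a test. The length is a median over all annotated protein-coding transcripts of a gene, and may not be that of the RNA expressed in these cells. Ndufs1, for example, stands at 651 bases and so counts among the shorter members in the split given next. Split at 693.5 bases, the shorter members had a median of 0.36 and the longer ones 0.10 in cluster 0, 0.24 and -0.18 in conventional dendritic 2-like cells, and 0.11 and -0.27 in CD8 T-like cells. The shorter members had the higher median in 12 of 12 tumor classes. Atp5k (321.5 bases), Atp5md (362), Ndufa1 (419) and Cox7c (540) lay high, and Ndufaf7 (1315), Ndufs3 (1046) and Ndufs8 (977) lay low. Single members went the other way: Ndufb8 (549.5) lay below the class median in all 12 tumor classes, and Ndufa13 (1251) above it in all 11 other than neutrophil-like.

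By rho, the same relation was not seen in every gene set or tissue. Cytosolic ribosomal protein genes, which are also short and abundant, had rho of -0.46 to -0.60 in the same 11 tumor classes, while all other measured genes of the members' length range had rho of -0.09 to 0.12. Split at the same length, the shorter of these other genes still had the higher median in 11 of 11 classes. The gap was 0.015 to 0.124 for them and 0.25 to 0.42 for the members. Members of bone marrow classes had rho of -0.02 to 0.35. With base composition (percent GC of the transcript) the members' rho was -0.03 to -0.16 in tumor. Median depth per cell was higher in KO than in WT in each tumor class except cluster 12 (3687 UMIs in KO, 5672 in WT), where rho was -0.50. The part of depth in the result was not tested.

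**Figure D4:**
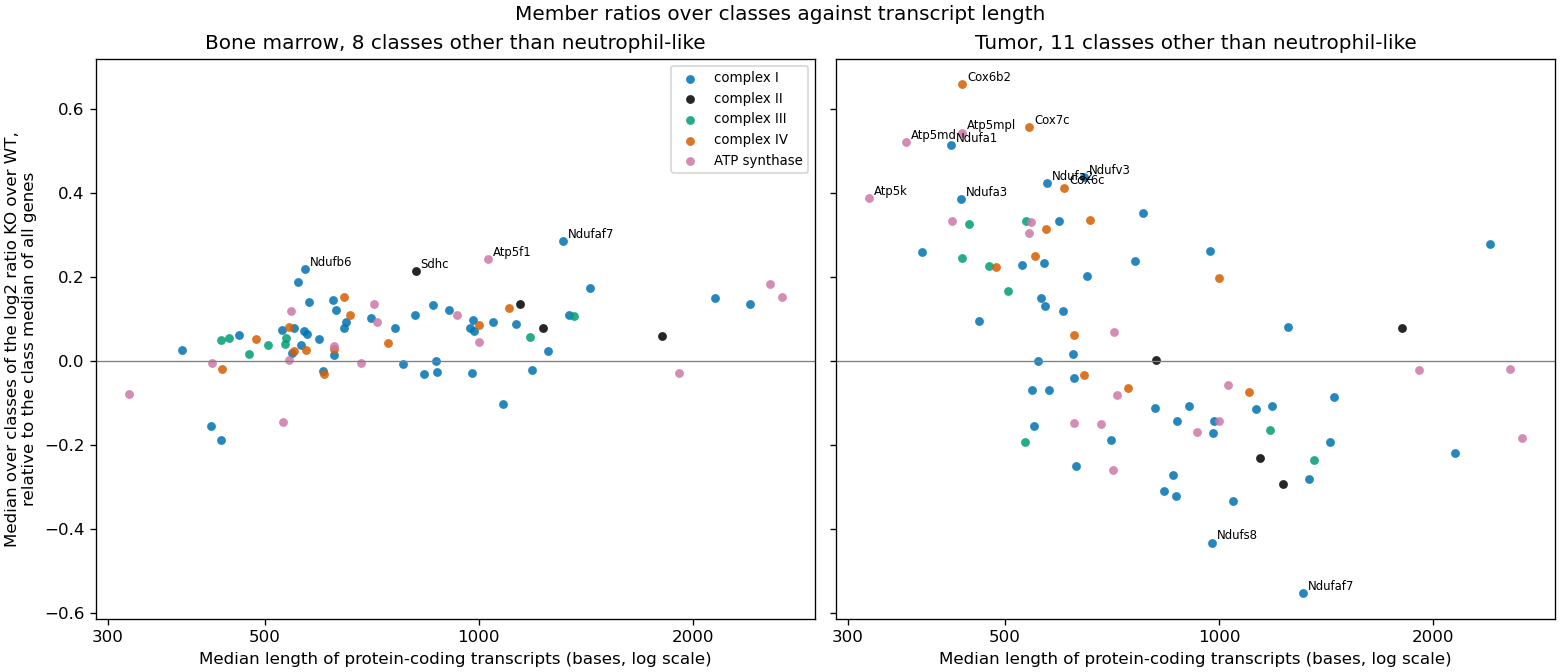
Median over classes other than neutrophil-like of a member's log2 ratio KO over WT, relative to all genes (y axis), against its median transcript length in bases (log x axis), colored by complex, for bone marrow (8 classes) and tumor (11 classes). Members measured in few of these classes or without a transcript length are left out. In tumor Cox7c lies at 0.56, Atp5md at 0.52 and Ndufaf7 at -0.55, while the bone marrow points lie between -0.19 (Ndufa3) and 0.29 (Ndufaf7).

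Some members kept 1 direction through all classes of a tissue. In bone marrow 76 members were measured in all 10 classes, and 10 of them lay above the class median in each (2.71% of the 3988 genes measured in all 10 did): Atp5f1, Atp5a1, Atp5l, Cox5a, Cox6b1, Cox7a2, Ndufb6, Ndufb10, Ndufv3 and Ndufs1. Ndufa3, an accessory membrane-arm subunit, was the 1 member below it in each (1.88% of all genes), for example at 586 CPM in KO and 687 in WT granulocyte progenitor-like cells and at 396 and 499 in plasmacytoid dendritic-like cells. In tumor 77 members were measured in all 12 classes. Atp5md, Atp5j2, Cox6b1, Ndufa1, Ndufa2 and Ndufb1-ps, 6 members, lay above the class median in each (3.22% of 3600 genes), and Ndufs8, Ndufb8 and Atp5o below it in each (3.06%). Leaving out neutrophil-like cells, 23 of 78 tumor members lay above in all 11 classes (5.27% of 3925 genes) and the same 3 lay below (3.75%). Ndufa2 was past the limit in all 11 of these (0.357% of all genes). All classes of a tissue come from the same 2 libraries, so a difference between those libraries reaches every class. Ndufa3 overlaps Tfpt, Ndufa2 overlaps Tmco6 and Ndufb1-ps overlaps Cpsf2 in the annotation; in all, 34 member genes share exon bases with another gene, 31 of them on the opposite strand and 5 on the same strand, among these Ndufb8 (with Gm20538) and Atp5o (with Donson), and whether counting used strand is not given in the sources used here.

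Levels of single members across classes are given here from the WT libraries. CPM are not divided by length, so the genes are compared with themselves across classes. In bone marrow Cox7c ranged from 297 CPM in mature neutrophil-like cells to 1578 in erythroid-like cells, and Atp5e, the epsilon subunit of ATP synthase, from 624 in mature neutrophil-like to 1707 in granulocyte progenitor-like cells. Uqcrh, the hinge subunit of complex III, ranged from 381 to 1050 CPM and Sdha from 54.98 in immature neutrophil-like to 206 in erythroid-like cells. Ndufa4 ranged over 12.7-fold, from 86.6 CPM in mature neutrophil-like to 1105 in granulocyte progenitor-like cells. Uqcrb, the ubiquinone-binding protein of complex III, ranged over 16.5-fold, from 39.0 to 644 CPM between the same classes. These genes were chosen as the highest or the widest-ranging of their complex, and their levels in neutrophil-like cells were lower by unequal factors.

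In tumor the neutrophil-like cells were the lowest class for the genes given next. Cox4i1, the common isoform of subunit 4 of complex IV, ranged from 450 CPM in WT neutrophil-like to 1183 in CD8 T-like cells, and Atp5h, a peripheral stalk subunit, from 190 to 1006 between the same classes. Ndufa13 ranged from 159 CPM in neutrophil-like to 507 in regulatory T-like cells. Sdhb and Uqcrc1, a core protein of complex III, were highest in cluster 12, at 187 and 140 CPM, against 63.3 and 23.97 in neutrophil-like cells. Atp5o, the stalk subunit known for conferring sensitivity to oligomycin, ranged from 51.4 to 329 CPM.

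The tissue isoforms of complex IV were found in few classes. Cox6a2, the heart and muscle isoform of a complex IV subunit, stood at 829 CPM in KO plasmacytoid dendritic-like cells (1141 UMIs) and 799 in WT (795 UMIs), beside Cox6a1 at 467 and 479. The next class was cluster 17 with 14.9 CPM in KO and 36.8 in WT, and in the other 8 bone marrow classes Cox6a2 was between 0.308 and 10.7 CPM. Cox6b2, known as the testis isoform, was highest in erythroid-like cells at 236 CPM in KO and 248 in WT, followed by cluster 17 at 90.9 and 118 and granulocyte progenitor-like cells at 64.2 and 74.3. In mature neutrophil-like cells it was at 2.22 and 5.04 CPM and in B-like cells at 1.32 and 7.41. In every bone marrow class its partner Cox6b1 was between 226 and 815 CPM.

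The isoforms tied to low oxygen were scarce. Cox4i2, the lung and hypoxia isoform, had at most 2.91 CPM in bone marrow (monocyte-like cells, 23 KO and 10 WT UMIs) while Cox4i1 was between 392 and 1212 CPM. In tumor cluster 1, the class led by Arg1 and Gpnmb, Cox4i2 had 36 UMIs in KO and 1 in WT, from 1199 and 185 cells. Ndufa4l2, a hypoxia-induced relative of Ndufa4, had 59 KO UMIs and 1 WT UMI in the same class. No ratio is given for either gene from 1 WT UMI. Cox7a1, the muscle isoform beside Cox7a2, stood at 10.6 CPM in KO and 10.8 in WT cluster 1. In tumor classes Cox6a2 stayed at or below 4.13 CPM.

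**Figure D5:**
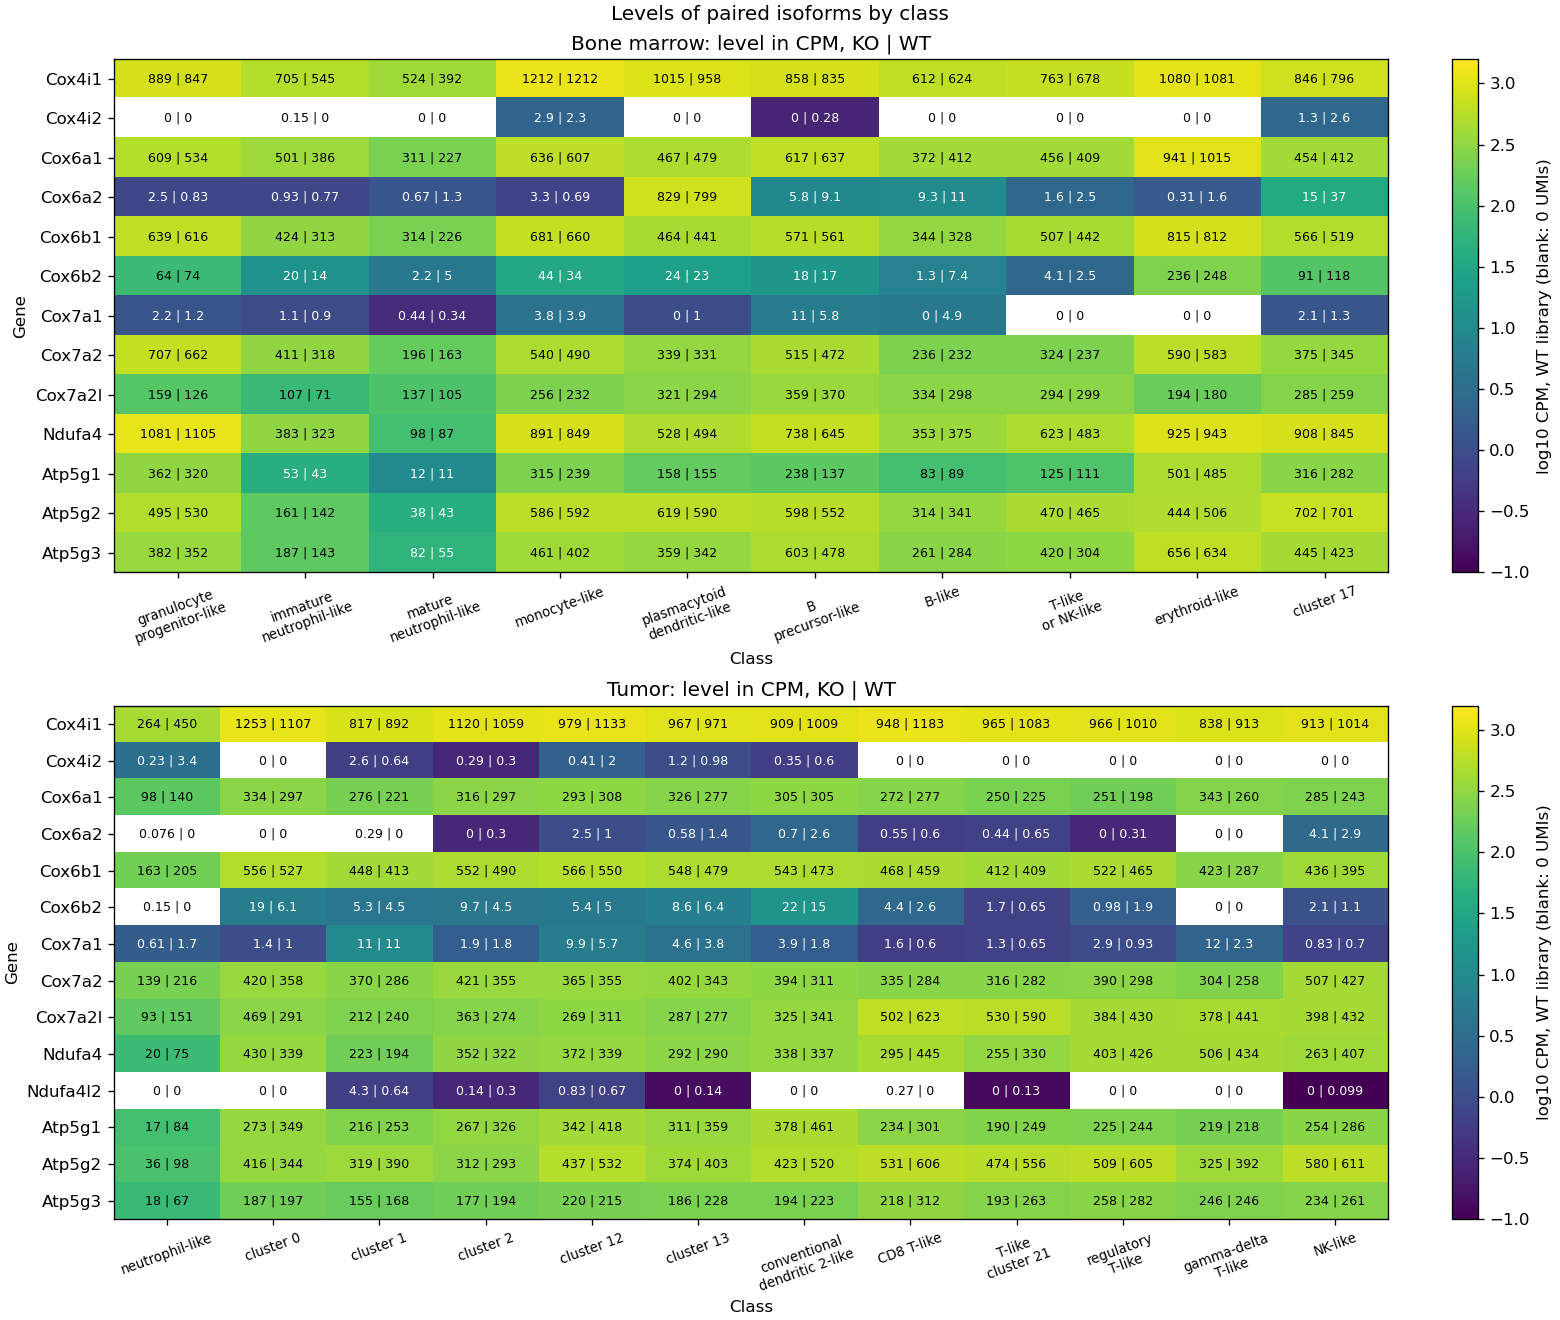
Level of isoform genes and of the 3 ring subunit genes (rows) in each class (columns) of bone marrow and tumor, with the KO and WT values in CPM printed in each cell and the color giving the log10 CPM of the WT library. Cox6a2 is at 829 CPM (KO) and 799 (WT) in plasmacytoid dendritic-like cells, and Atp5g1 is lowest in mature neutrophil-like cells at 11.6 and 10.7 CPM.

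The 3 ring genes Atp5g1, Atp5g2 and Atp5g3 encode the same mature c subunit of ATP synthase behind different import signals, and their levels in neutrophil-like cells were lower than in progenitor-like cells by different factors. In WT bone marrow Atp5g1 went from 320 CPM in granulocyte progenitor-like to 42.6 in immature and 10.7 in mature neutrophil-like cells, with 485 CPM in erythroid-like cells, a 45.1-fold range. Atp5g2 went from 530 to 142 and 43.0 CPM, and Atp5g3 from 352 to 143 and 54.7. The KO library gave 362, 53.4 and 11.6 CPM for Atp5g1 along the same classes. The 120 bases before the start of each of these genes, and of Sdha, are shown because Sdha and Atp5g2 had the lowest ratios in mature neutrophil-like cells and because the ring genes make 1 protein from 3 promoters. They are from the RefSeq promoter table (GRCm38.p6), on the minus strand, 5′ to 3′, with capitals marking the NRF1 motif, GCGCA followed by any base and GCGC (NRF1 is a known activator of respiratory genes). The regions are chr11:96075632-96075751 (Atp5g1), chr15:102671048-102671167 (Atp5g2), chr2:73911327-73911446 (Atp5g3) and chr13:74350241-74350360 (Sdha).
Atp5g1: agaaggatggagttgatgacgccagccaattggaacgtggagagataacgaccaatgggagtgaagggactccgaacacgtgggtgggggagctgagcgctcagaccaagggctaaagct
Atp5g2: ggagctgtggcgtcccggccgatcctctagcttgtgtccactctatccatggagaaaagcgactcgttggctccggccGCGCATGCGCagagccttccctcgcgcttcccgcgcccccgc
Atp5g3: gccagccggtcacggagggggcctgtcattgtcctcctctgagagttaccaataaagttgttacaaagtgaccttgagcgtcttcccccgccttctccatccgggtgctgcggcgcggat
Sdha: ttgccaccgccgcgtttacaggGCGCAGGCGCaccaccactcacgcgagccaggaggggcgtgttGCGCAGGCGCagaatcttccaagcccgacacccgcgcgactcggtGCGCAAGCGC

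Atp5g2 holds 1 and Sdha 3 such motifs in the bases shown, and those of Atp5g1 and Atp5g3 hold none, though the Atp5g3 promoter holds a motif outside them. Among members, 73 of 92 genes had a promoter in the table, from 250 bases before to 50 bases after the start. The NRF1 motif was found on either strand in a promoter of 26.03% of the 73 genes, against 5.19% of all 27025 gene symbols of the table, some of which have more than 1 promoter. The ETS motif CCGGAAG, bound by the factor Gabpa among others, was found in 26.03% against 9.93%, and the YY1 motif AAGATGGC in 13.7% against 3.19%. At least 1 of the 3 was found in 41 of the 73 (56.2%), against 16.4% of all symbols. By complex, the NRF1 motif was present in 6 of 14 ATP synthase genes, 9 of 40 of complex I and 1 of 11 of complex IV. A match shows that the letters are present, and a missing match says nothing about binding of the factor.

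Beside the nuclear genes, the 13 protein-coding genes of mitochondrial DNA also differed between the tissues. The median ratio of those measured was below 0 in all 10 bone marrow classes, from -0.54 in granulocyte progenitor-like to -0.07 in B-like cells, and above 0 in 11 of 12 tumor classes. The difference between these sets was not tested. The uncentred share of UMIs from the mitochondrially encoded genes was 1.64% in KO and 2.25% in WT granulocyte progenitor-like cells and 0.439% and 0.433% in mature neutrophil-like cells.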

How the data were processed

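The authors deposited raw UMI counts per gene and barcode for 4 libraries of CD45+ cells. Per the file headers, the bone marrow counts were written by Cell Ranger 3.1.0 and the tumor counts by 6.0.2. Cell Ranger 6.1.2, R 4.2.1, Seurat 4.3.0 and the builds GRCm38 and mm10 appear in the submitters' processing notes without their roles. The feature lists differ between tissues, so each tissue was analysed alone. Counts under the same symbol were summed, as for Atp5o in bone marrow. The aligner settings, the end of the transcript sequenced and the strand of counting are not given in the sources used here.

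Cells under 200 genes or above 10% mitochondrial UMIs were left out. Doublet scores came from scrublet in scanpy 1.11.5, whose automatic threshold marked 0% of KO bone marrow and 0.00831% of WT tumor barcodes and was read as having failed. The top-scoring barcodes were therefore removed in every library at 0.8% per 1000 barcodes (6.50% to 9.62%), a rule chosen after seeing this. Cells of a tissue were clustered together (2000 variable genes, 30 components, 15 neighbors, Leiden resolution 1, igraph 0.11.9, seed 0) and named from marker lists without respiratory genes. These names were rebuilt here and may not match the authors'. No deposited cell annotation was used.

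UMIs were summed per class and library and scaled to CPM. Intervals are exact Poisson, conditional or Clopper-Pearson, at 95%. Ratio intervals were checked on simulated Poisson counts without variation between cells, mice or libraries, so the check covers the calculation only. The interval of a median over members, used to label alternatives, comes from the ranks of the members. Named genes are, per class with 200 cells in each library, the 2 highest and 2 lowest ratios among members with 200 UMIs, genes fixed by role, and per complex the member of highest level and of widest range. The members, lists and this rule were chosen with earlier results of these data known. Transcript lengths are from GENCODE M21 (GRCm38). Alternatives changed the scaling, UMI minimum, averaging, depth, doublets, mitochondrial limit, class definition, cluster weights and members. Python 3.11.15, scipy 1.17.1 and pandas 2.3.3 were used. A comparison of complex I subunits by role is not reported here.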

Additional observations from a re-analysis of the deposited data

Results flagged for a closer look

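Ndufa3, an accessory subunit of complex I, was below the class median in each bone marrow class and above it in each tumor class other than neutrophil-like: its median log2 ratio of KO over WT was -0.19 over 8 bone marrow classes and 0.39 over 11 tumor classes. It was 1 of 76 members below the class median in all 10 bone marrow classes, against 1.88% of 3988 genes. Above it in all 11 of those tumor classes lay 23 of 78 members, against 5.27% of 3925 genes. The complex I assembly factor Ndufaf7 showed the opposite order, at 0.29 over the 5 bone marrow classes and -0.55 over the 10 tumor classes other than neutrophil-like in which it was measured. In immature neutrophil-like cells of bone marrow Ndufaf7 stood at -0.43. In neutrophil-like cells the members had a median of 0.16 in bone marrow (mature) and of -0.47 in tumor. These were picked out because the classes of 1 tissue, for single genes those other than neutrophil-like, lay on one side and those of the other tissue on the opposite side. The difference between tissues was not tested, with 1 library per group, and the tissues differ in the Cell Ranger version and feature list of their files.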

How the results depend on the processing

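The median ratio kept its sign in 190 of 204 alternatives, and in 15 of 22 classes under every alternative run. It was reversed in plasmacytoid dendritic-like (-0.0437) and erythroid-like cells (-0.0177) with cells thinned to equal depth, in B precursor-like cells with clusters weighted alike (-0.0197) and in cluster 17 with classes defined by WT cells alone (-0.0315). Sign changes within the interval of the median over members were seen in conventional dendritic 2-like (up to 0.0807), granulocyte progenitor-like (down to -0.0050) and B-like cells (up to 0.0208). It moved with thinning in B precursor-like cells (0.0650) and cluster 17 (0.132), and with the mean over cells in monocyte-like (0.0897), B precursor-like (0.0689), T-like or NK-like (0.0942) cells, cluster 17 (0.123) and T-like cluster 21 (-0.0376). It was 0.18 in immature neutrophil-like cells with clusters weighted alike, and in tumor neutrophil-like cells -0.17 with genes of 10 or more UMIs and -0.21 with doublets kept. In conventional dendritic 2-like cells it was 0.12 with WT-defined classes, opposite in sign to the main value of -0.029. There 4 of 9 alternatives kept the sign of the main value. The ratio of summed levels crossed 1 in granulocyte progenitor-like cells (0.985) and T-like cluster 21 (1.00) without abundant genes in the totals, in B precursor-like cells with clusters weighted alike (0.969), in erythroid-like cells with the mean over cells (0.978) and thinning (0.967), in cluster 17 with WT-defined classes (0.995), in conventional dendritic 2-like cells with the mean over cells (1.00), thinning (1.02) and WT-defined classes (1.05), and in regulatory T-like cells with the mean over cells (0.984). The highest over the lowest class share was 3.73-fold (KO) and 4.00-fold (WT) in bone marrow and 5.43-fold and 3.34-fold in tumor without abundant genes, and 3.18-fold, 4.38-fold, 4.36-fold and 3.14-fold by the median of thinned cells. Counts past the fold moved by over 1.5 times in 146 of 446 alternatives, which included a 1.5-fold limit and a minimum of 500 UMIs. Leaving out clusters with under 100 cells in a library, chosen after seeing the data, gave medians of 0.12 in mature neutrophil-like, 0.19 in B precursor-like and -0.33 in tumor neutrophil-like cells. The cause of these shifts was not tested. Tumor clusters 0, 1, 2 and 13 had no WT-defined counterpart. No paired analysis was possible because each group has 1 library.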

Other observations

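Other mitochondrial and energy genes were described by the same ratio, KO over WT relative to all genes of a class. List sizes are given below, and each median covers only the genes measured in the class. In tumor neutrophil-like cells these were 45 of 78 mitochondrial ribosomal protein genes, 15 of 27 import genes and 4 of 10 regulators. The 78 mitochondrial ribosomal protein genes had a median above 0 in 9 of 10 bone marrow classes, at most 0.19, and below 0 in 11 of 12 tumor classes, down to -0.91 in neutrophil-like cells. The 13 tricarboxylic acid cycle genes had a median above 0 in 6 of 10 bone marrow classes and in 3 of 12 tumor classes. The 27 import genes (Tomm and Timm) were above 0 in 8 of 10 and in 4 of 12, and the 14 carrier and assembly genes outside the symbol rule in 5 of 10 and in 3 of 12. Glycolysis genes, which split glucose in the cytosol, were above 0 in 9 of 10 and in 10 of 12, with 0.90 in tumor neutrophil-like cells, where the respiratory members had -0.47, and 0.69 in conventional dendritic 2-like, 0.64 in NK-like and 0.56 in bone marrow B precursor-like cells. Cytosolic ribosomal protein genes were above 0 in 9 of 10 and in 8 of 12, from -0.66 in tumor neutrophil-like cells to 0.63 in cluster 0. The 10 regulators of mitochondrial genes were above 0 in 6 of 10 and in 5 of 12 classes. All these classes share 2 libraries per tissue, and the lists were chosen with earlier results of these data known.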
